A study of Mus musculus with 16 samples.

Results

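Cutting the abdominal vagus was compared with sham surgery in gonadal fat of mice whose brain melanocortin receptors were blocked with SHU9119. The comparison takes 8 of the 16 libraries of the study, chosen by their labels alone. Of these, 4 come from mice with subdiaphragmatic vagotomy (sDVX) and SHU9119 (VX_SHU), and 4 from mice with sham surgery and SHU9119 (Sham_SHU). All 8 libraries come from lean male mice of the inbred strain C57BL/6J, labelled 16 weeks old and kept on chow. Infusion into the cerebral ventricles began 4 weeks after surgery and delivered SHU9119 at 1 nmol per day for 2 weeks from a minipump, with every mouse given the same calories. The other 8 libraries, sDVX with vehicle (VX_Veh) and sham surgery with vehicle (Sham_Veh), 4 each, were infused over the same time without the drug. The series title puts the question of a path from the brain through the vagus that expands fat independently of intake. Whether the libraries of a group come from separate mice is not stated in the labels, and the p-values therefore cover only differences from library to library. They also give no test that the nerve was fully cut.

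SHU9119 is a peptide that blocks the melanocortin-3 and melanocortin-4 receptors, through which hypothalamic POMC neurons lower food intake and raise sympathetic output to fat. The subdiaphragmatic vagus carries parasympathetic fibres to the gut, liver and pancreas and sensory fibres from these organs to the brainstem. White fat stores fatty acids taken up from lipoproteins or made from glucose under insulin, and the tissue also holds stromal progenitors, vessels, macrophages and other immune cells.

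Total counts were 22678647 to 30889052 in VX_SHU libraries and 20904855 to 28617143 in Sham_SHU libraries, and 16682 genes had enough counts to be tested. Adipocyte RNA was plain in every library: Adipoq, the gene of adiponectin, stood at 3173, 2510, 2997 and 2167 CPM in VX_SHU and at 3006, 3101, 2661 and 2613 CPM in Sham_SHU (CPM, counts scaled to the size of the library). RNA of neighbouring organs was present as well. Summed epididymis markers other than Npc2 reached 11130 CPM in VX_SHU4, 3417 CPM in Sham_SHU4 and 1714 CPM in Sham_SHU3, against 8.923 to 110.1 CPM in the other 5 libraries. Summed testis markers reached 1762 CPM in Sham_SHU3, against 66.16 to 460.1 CPM in the other 7. In bulk tissue, fewer cells of a type and less RNA per cell cannot be told apart.

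No gene passed the test between VX_SHU and Sham_SHU. With edgeR's quasi-likelihood test, 0 of 16682 genes (0%) had an adjusted p under 0.05, and the smallest adjusted p was 0.294. At an unadjusted p under 0.05 there were 1778 genes (10.7%), against 834 expected by chance, and 1020, 1114 and 1130 genes without VX_SHU1, VX_SHU2 or VX_SHU4. Of these, 853 (5.11%) were higher and 925 (5.54%) were lower in VX_SHU. The DESeq2 Wald test called 93 genes (0.585% of 15892 with an adjusted p), 69 higher and 24 lower. Limma-voom with sample weights called 779 genes (4.67%), 354 higher (2.12%) and 425 lower (2.55%), and 91 genes were called by both of these tools. The 4 VX_SHU libraries lay all above the 4 Sham_SHU libraries for 534 genes (3.2%) and all below for 407 genes (2.44%), together 941 genes (5.64%). The median log2 fold change over all genes was -0.01, and the central 90% of genes lay between -1.59 and 0.77. Differences below are therefore given as levels and fold changes that did not pass the edgeR test, and each log2 fold change is VX_SHU minus Sham_SHU with its standard error.

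The genes with the smallest p on the higher side were Numbl, Srpx, Hexim1, Islr, Flt3l, Mbd6, Nmb, Arhgap15, Ldb1 and Rsrp1, among named genes averaging at least 5 CPM. Numbl (chr7:27258438-27282150, mm10), the gene of a Numb-like adaptor that acts on Notch signalling, had 27.4, 26.7, 27.3 and 23.7 CPM in VX_SHU and 18.0, 18.9, 19.8 and 17.7 CPM in Sham_SHU. The groups did not overlap, and the VX_SHU libraries lay closer to each other than to any Sham_SHU library. Its log2 fold change was 0.50 ± 0.0816 (edgeR adjusted p = 0.294). Srpx (chrX:10037977-10117640), a sushi-repeat protein of the secretory pathway, had 33.9, 28.3, 26.0 and 34.1 CPM in VX_SHU and 18.1, 19.2, 20.6 and 18.5 CPM in Sham_SHU, a log2 fold change of 0.68 ± 0.118 (edgeR adjusted p = 0.294). Every VX_SHU library was above every Sham_SHU library here too. Without Sham_Veh4, a vehicle library that enters only the shared estimate of spread, and without both libraries rich in testis markers (Sham_Veh4 and Sham_SHU3), Numbl and Srpx did pass the edgeR test.

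Nmb, the gene of the peptide neuromedin B, showed the largest ratio of these 10. Its level was 16.3, 15.1, 9.61 and 10.7 CPM in VX_SHU and 5.22, 2.76, 7.28 and 5.95 CPM in Sham_SHU, with a log2 fold change of 1.28 ± 0.258 (edgeR adjusted p = 0.3). Flt3l, the cytokine that drives dendritic cell development, had 18.4, 19.6, 12.8 and 16.4 CPM in VX_SHU and 10.8, 9.55, 11.4 and 11.2 CPM in Sham_SHU (log2 fold change 0.64 ± 0.128). Neither gene overlapped between the groups, and VX_SHU3 was the lowest VX_SHU library for both. Hexim1, an inhibitor of the elongation factor P-TEFb, had 129.6, 123, 119.8 and 110.5 CPM in VX_SHU and 93.5, 83.8, 89.6 and 95.5 CPM in Sham_SHU (0.41 ± 0.0757). Islr, a marker of mesenchymal stromal cells, had 65.9, 63.6, 62.1 and 62.6 CPM in VX_SHU and 42.2, 54.1, 47.2 and 48.0 CPM in Sham_SHU (0.41 ± 0.0751). The remaining 4 genes, Mbd6, Arhgap15 (a Rac GTPase-activating protein), Ldb1 (a LIM-domain binding cofactor) and Rsrp1, had log2 fold changes of 0.37 to 0.70 and no overlap between the groups. The annotation places the end of Mbd6 over the neighbouring Ddit3, and the strand setting of the counting is not given, so reads of the overlap cannot be told apart.

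**Figure D1:**
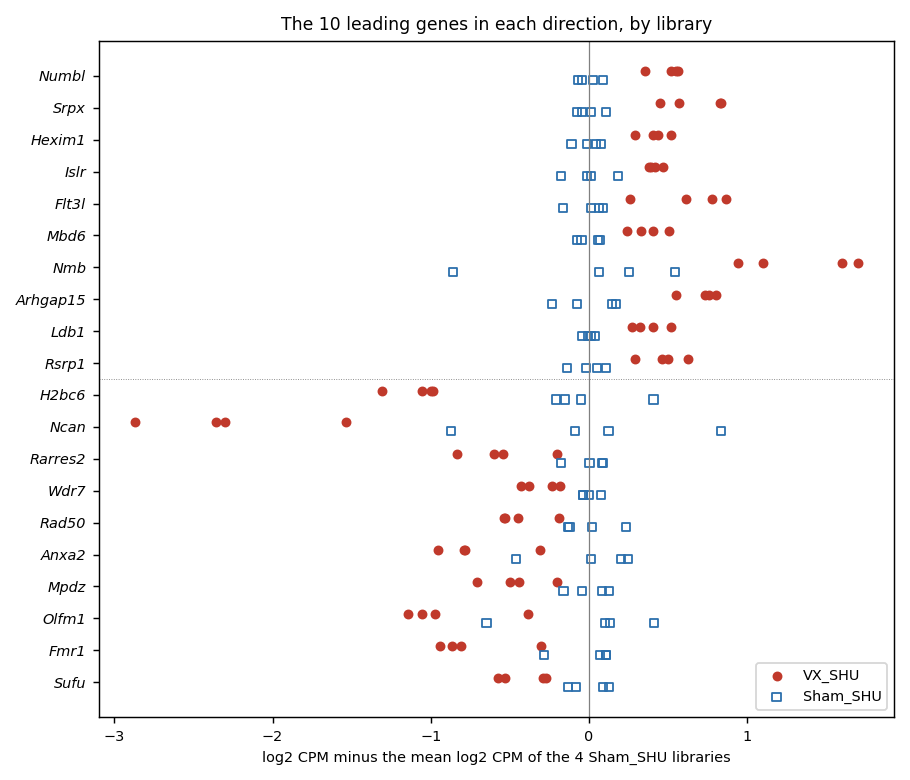
The 20 genes with the smallest p in VX_SHU against Sham_SHU, 10 on each side, with each library's log2 CPM minus the mean of the Sham_SHU libraries on the x axis. Filled red dots are VX_SHU libraries and open blue squares are Sham_SHU libraries. The 2 sets of symbols do not overlap for 18 of the 20 genes, and they do for Anxa2 and Olfm1. Of all genes tested, 5.64% did not overlap, and picking genes by a small p favours such genes.

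On the lower side the genes with the smallest p were H2bc6, Ncan, Rarres2, Wdr7, Rad50, Anxa2, Mpdz, Olfm1, Fmr1 and Sufu. Ncan (chr8:70093085-70120863), which encodes neurocan, a chondroitin sulfate proteoglycan best known from brain matrix, had 1.91, 1.34, 3.37 and 1.99 CPM in VX_SHU and 9.20, 17.4, 5.33 and 10.6 CPM in Sham_SHU. Every VX_SHU library was below every Sham_SHU library, and the log2 fold change was -2.31 ± 0.462 (edgeR adjusted p = 0.3). Without both libraries rich in testis markers, Ncan did pass the edgeR test (adjusted p = 0.0462). Under vehicle Ncan averaged 1.23 ± 0.347 CPM in VX_Veh and 1.74 ± 1.15 CPM in Sham_Veh (SD, n = 4 each), so the 4 Sham_SHU libraries held the highest levels of the study. H2bc6, a replication-dependent histone H2B gene, had 3.46, 2.89, 3.59 and 3.63 CPM in VX_SHU and 6.92, 9.51, 6.22 and 6.46 CPM in Sham_SHU, again without overlap (log2 fold change -1.10 ± 0.214, edgeR adjusted p = 0.3). H2B genes are near-identical copies and their messages mostly lack poly(A) tails, so this count is uncertain.

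Rarres2, the gene of the adipokine chemerin, had 58.9, 74.9, 56.6 and 48.1 CPM in VX_SHU and 91.0, 76.1, 91.4 and 86.1 CPM in Sham_SHU. The groups were apart, though VX_SHU2 and Sham_SHU2 nearly met, and the log2 fold change was -0.53 ± 0.111 (edgeR adjusted p = 0.315). Rarres2 (chr6:48569696-48572845) overlaps Lrrc61 at 1 end. Fmr1, which encodes the RNA-binding protein lost in fragile X syndrome, had 244, 222, 345 and 234 CPM in VX_SHU and 447, 459, 349 and 459 CPM in Sham_SHU (-0.72 ± 0.172). Anxa2, a calcium-dependent membrane-binding annexin, had 559.6, 626, 874 and 630.2 CPM in VX_SHU and 1286, 1244, 787 and 1092 CPM in Sham_SHU (-0.71 ± 0.155). In both genes VX_SHU3 was the highest VX_SHU library and Sham_SHU3 the lowest Sham_SHU library, and for Anxa2 that pair crossed. Olfm1, a secreted olfactomedin, had the same order of libraries and also overlapped (-0.91 ± 0.217). The other 4, Wdr7, Rad50 (a subunit of the DNA break repair complex MRN), Mpdz (a tight-junction scaffold) and Sufu (an inhibitor of Hedgehog signalling), had log2 fold changes of -0.46 to -0.30 and did not overlap. All 20 genes were called by both DESeq2 and limma-voom, and each kept its sign in all 27 alternative fits. These genes were picked by their p in the same counts, so neither result is an independent check.

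Mc1r, a melanocortin receptor best known from pigment cells, lay outside the list above because its mean was under 5 CPM, but its p lay between those of Numbl and Srpx. It had 2.97, 3.45, 4.06 and 2.67 CPM in VX_SHU and 1.19, 1.03, 0.883 and 1.31 CPM in Sham_SHU. The groups did not overlap, with a log2 fold change of 1.57 ± 0.271 (edgeR adjusted p = 0.294). Limma-voom gave Mc1r an adjusted p of 0.00995 and DESeq2 one of 9.2e-05. Under vehicle it averaged 1.45 ± 0.284 CPM in VX_Veh and 1.28 ± 0.415 CPM in Sham_Veh (SD, n = 4 each), so VX_SHU alone was high; the interaction was 1.39 ± 0.378 on the log2 scale (edgeR adjusted p = 0.957). Of the 10 genes listed for melanocortin signalling, 8 were tested, and Mc1r was the only 1 at an unadjusted p under 0.05. Mc2r, the corticotropin receptor of adipocytes, had 24.0, 21.2, 30.5 and 14.9 CPM in VX_SHU and 27.9, 34.7, 24.1 and 30.2 CPM in Sham_SHU (-0.37 ± 0.232, overlapping). Mrap, the accessory protein that brings this receptor to the cell surface, had a log2 fold change of -0.37 ± 0.333. Mc5r had 1.02, 1.24, 0.939 and 0.534 CPM in VX_SHU and 0.569, 1.03, 0.294 and 0.555 CPM in Sham_SHU (0.61 ± 0.463).

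Cell cycle genes had the lowest median log2 fold change of the 22 pathway lists. All 28 listed genes were tested and all 28 had a log2 fold change below 0, as did 50.9% of all genes, and their median was -0.70, against -0.01 over all genes. Of the 28, 13 were lower at an unadjusted p under 0.05 (5.54% of all genes). For 9, every VX_SHU library was below every Sham_SHU library (2.44% of all genes). None of the 28 passed the edgeR test. Limma-voom called 11 lower (2.55% of all genes), and DESeq2 called 1, Mki67 (0.585% of genes, either way). Summed over the list, VX_SHU had 282.7, 318.1, 359.1 and 288.4 CPM and Sham_SHU had 426.8, 396.1, 379.2 and 410.4 CPM, with no overlap. Libraries within a vehicle group spread more widely, from 283.3 to 532.2 CPM in VX_Veh and from 283.5 to 501 CPM in Sham_Veh. Mki67, the proliferation antigen Ki-67, had 10.9, 9.51, 17.1 and 8.17 CPM in VX_SHU and 25.7, 21.9, 16.1 and 26.2 CPM in Sham_SHU (-0.97 ± 0.238, edgeR adjusted p = 0.376), and only VX_SHU3 and Sham_SHU3 crossed. Cdk1, the mitotic kinase, had 2.57, 2.14, 3.71 and 3.44 CPM in VX_SHU and 6.26, 6.26, 5.08 and 6.56 CPM in Sham_SHU (-1.02 ± 0.361), without overlap. Top2a, the topoisomerase of dividing cells, was apart too, at 9.53, 7.43, 12.5 and 6.64 CPM in VX_SHU and 20.4, 18.2, 22.7 and 19.0 CPM in Sham_SHU (-1.15 ± 0.423).

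Among the genes of the MCM helicase, which opens DNA for copying, Mcm5 and Mcm3 had log2 fold changes of -0.40 and -0.25, but Mcm2, Mcm4, Mcm6 and Mcm7 lay between -0.19 and -0.02. Ccnd1, the cyclin that starts the cycle, had -0.17 ± 0.448, and its libraries overlapped widely. Sham_SHU3, with the most testis RNA of the 8 libraries, was the highest Sham_SHU library for 11 of the 28 genes and the lowest for 16. Cdc20, which activates the anaphase-promoting complex, had 1.95, 2.05, 2.22 and 2.25 CPM in VX_SHU and 4.32, 3.91, 7.87 and 4.14 CPM in Sham_SHU. The groups did not overlap, and Sham_SHU3 was the highest library. Without the libraries rich in testis RNA the median of the list was -0.67, and over all alternatives it lay between -0.91 (without VX_SHU3) and -0.55 (with epididymis and testis markers as covariates). Under vehicle the median of the same list was -0.52 for VX_Veh minus Sham_Veh, where Sham_Veh4 had the highest testis marker sum of the study (3634 CPM).

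The promoters of Mki67 and Cdk1 are shown because these genes stood lower together and both promoters hold several copies of the CCAAT box and of the cell cycle homology region motif. Each sequence runs from 250 bases before to 50 bases after the start given by RefSeq, on the gene's own strand. Mki67 lies at chr7:135716330-135716629 and Cdk1 at chr10:69352863-69353162 (GRCm38.p6, minus strand for both). Capitals mark CCAAT, or ATTGG where the box is on the other strand, and TTTGAA.
Mki67: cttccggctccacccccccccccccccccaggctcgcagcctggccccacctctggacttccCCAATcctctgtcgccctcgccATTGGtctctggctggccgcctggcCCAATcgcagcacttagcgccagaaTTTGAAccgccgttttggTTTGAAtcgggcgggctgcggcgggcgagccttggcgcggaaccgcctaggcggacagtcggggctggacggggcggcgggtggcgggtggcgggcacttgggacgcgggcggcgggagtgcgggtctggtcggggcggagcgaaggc
Cdk1: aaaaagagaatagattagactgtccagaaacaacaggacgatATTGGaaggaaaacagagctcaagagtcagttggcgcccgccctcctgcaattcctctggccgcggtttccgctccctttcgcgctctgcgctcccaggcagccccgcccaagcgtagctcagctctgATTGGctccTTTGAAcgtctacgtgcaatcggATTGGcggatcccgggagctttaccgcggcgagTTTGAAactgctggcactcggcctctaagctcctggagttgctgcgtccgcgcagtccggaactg
Each promoter held 3 CCAAT and 2 TTTGAA matches, searched on both strands with no overlap between the motifs. CCAAT was found in 19 of the 22 cell cycle promoters available (86.4%) and in 38.3% of the 13116 promoters of tested genes. TTTGAA was found in 10 of the 22 (45.5%) and in 13% of all, and this motif was chosen after the values were seen. The matches describe the letters of these windows only.

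Genes of cholesterol synthesis and uptake were mostly lower in VX_SHU. Of 26 genes tested, 23 had a log2 fold change below 0 with a median of -0.33 (-0.20 without Sham_SHU2), 5 were lower at an unadjusted p under 0.05 (5.54% of all genes), and none passed the edgeR test. Limma-voom called 4 of them lower (2.55% of all genes). Insig1, which holds back the sterol-sensing SREBP pathway and is itself one of its targets, had 301, 349.7, 520 and 281 CPM in VX_SHU and 667, 846, 360 and 838 CPM in Sham_SHU (-0.90 ± 0.289, edgeR adjusted p = 0.441). Its paralog Insig2 was apart between the groups, at 64.0, 61.6, 72.1 and 56.7 CPM in VX_SHU and 84.6, 90.7, 74.6 and 78.2 CPM in Sham_SHU (-0.37 ± 0.112). In both genes VX_SHU3 was the highest of its group and Sham_SHU3 the lowest of its own. Hmgcs1, the enzyme that makes HMG-CoA, had 313, 237, 305 and 375 CPM in VX_SHU and 473, 397, 339.6 and 443 CPM in Sham_SHU (-0.43 ± 0.178). Lss, which closes the sterol rings, had a log2 fold change of -0.68 ± 0.283 (-0.43 without Sham_SHU2), with overlap between the groups.

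The promoter of Hmgcs1 is shown because it was the 1 promoter of 19 available for this list (5.26%) that held the core of the sterol regulatory element, TCACNCCAC, which 1.17% of all promoters held. It lies at chr13:119690101-119690400 (GRCm38.p6, plus strand, RefSeq). Capitals mark that core and 4 CCAAT boxes, all read as ATTGG because they lie on the other strand.
Hmgcs1: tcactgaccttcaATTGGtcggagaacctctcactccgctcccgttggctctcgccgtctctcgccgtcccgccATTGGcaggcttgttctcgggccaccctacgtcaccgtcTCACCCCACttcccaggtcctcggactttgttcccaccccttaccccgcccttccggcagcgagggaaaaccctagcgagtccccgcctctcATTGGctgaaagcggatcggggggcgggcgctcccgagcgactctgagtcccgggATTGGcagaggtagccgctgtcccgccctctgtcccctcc
CCAAT was found in 16 of the 19 promoters (84.2%) and the E-box CACGTG in 4 of the 19 (21.1%), against 38.3% and 9.43% of all promoters.

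Fatty acid synthesis split by library more than by group. Summed over the 22 genes, VX_SHU had 54770, 47640, 99080 and 44370 CPM and Sham_SHU had 106500, 137100, 55590 and 84580 CPM. VX_SHU3 thus lay among the Sham_SHU libraries, and Sham_SHU3 lay next to the other 3 VX_SHU libraries. VX_SHU3 was the highest VX_SHU library for 16 of the 22 genes and Sham_SHU3 the lowest Sham_SHU library for 19 of the 22, against 30.3% and 30.9% of all genes. The labels give no ground to exchange these libraries, so they were kept in their groups. The median log2 fold change of the list was -0.28, with 14 of 22 genes below 0. It moved to -0.54 without VX_SHU3, -0.47 without Sham_SHU3, -0.18 without Sham_SHU1 or without VX_SHU2, and -0.08 without Sham_SHU2.

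Fasn, the fatty acid synthase, had 10450, 7768, 23850 and 9350 CPM in VX_SHU and 21550, 24440, 9092 and 14660 CPM in Sham_SHU (-0.44 ± 0.486). Its log2 fold change was -0.23 without Sham_SHU2, -0.26 without VX_SHU2 and -0.93 without VX_SHU3. Scd1, the stearoyl-CoA desaturase of adipocytes, had 32040, 29220, 53810 and 24140 CPM in VX_SHU and 63650, 86660, 36400 and 53470 CPM in Sham_SHU (-0.79 ± 0.384). In both genes 3 VX_SHU libraries were low and VX_SHU3 was high, so the groups overlapped. Elovl6, which elongates palmitate, had 194, 149, 653 and 218 CPM in VX_SHU and 720, 986, 236 and 425 CPM in Sham_SHU (-0.96, and -0.60 without Sham_SHU2 or -1.66 without VX_SHU3). Acly, which makes cytosolic acetyl-CoA from citrate, had 1533, 1417, 4482 and 2001 CPM in VX_SHU and 3903, 4851, 1285 and 2536 CPM in Sham_SHU (-0.41 ± 0.504). Leaving out 1 of 6 libraries moved Acly by over 1.5 times: it was -0.27, -0.13 and -0.66 without Sham_SHU1, Sham_SHU2 and Sham_SHU3, and -0.26, -0.23 and -0.93 without VX_SHU1, VX_SHU2 and VX_SHU3. Scd2 was the only gene of the list at an unadjusted p under 0.05, with 542, 559, 775 and 827 CPM in VX_SHU and 1268, 1258, 622 and 1172 CPM in Sham_SHU (-0.68 ± 0.257, edgeR adjusted p = 0.455). Scd1 and Scd2 are close copies, and reads that match both may have been counted for either. The pentose phosphate pathway, which supplies NADPH for synthesis, had 6 of 7 genes below 0 and a median of -0.32 (-0.16 without Sham_SHU2, -0.54 without VX_SHU3). All 7 were lowest in Sham_SHU3 within their group.

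**Figure D2:**
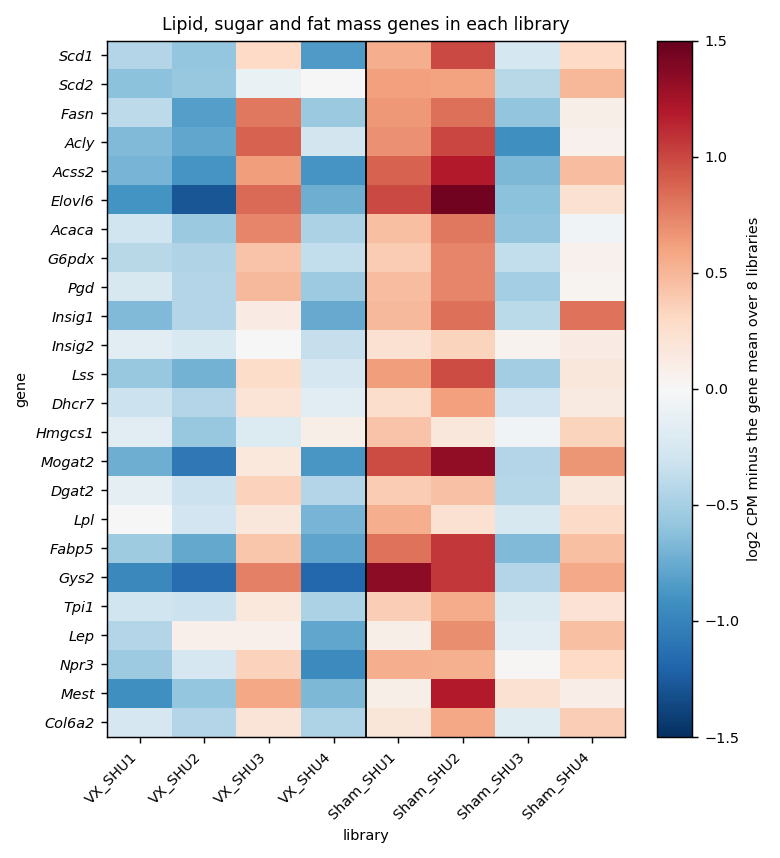
Heat map of 24 lipid, sugar, fat mass and matrix genes in the 4 VX_SHU libraries (left) and the 4 Sham_SHU libraries (right), coloured by log2 CPM minus the gene's mean over the 8 libraries, from -1.5 (blue) to 1.5 (red). VX_SHU3 is red among blue VX_SHU columns and Sham_SHU3 is blue among red Sham_SHU columns for most of the synthesis genes.

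Triglyceride assembly and fatty acid uptake held 18 of 23 genes below 0, with a median of -0.17 (-0.08 without VX_SHU4, -0.09 without Sham_SHU1). The 3 genes at an unadjusted p under 0.05 were all lower in VX_SHU, as were 5.54% of all genes. Mogat2, an acyltransferase that makes diacylglycerol, had 4.87, 3.85, 9.05 and 4.43 CPM in VX_SHU and 16.0, 20.4, 6.00 and 12.8 CPM in Sham_SHU (-1.31 ± 0.372, edgeR adjusted p = 0.432). Vldlr, the VLDL receptor, had 88.4, 83.7, 98.9 and 71.6 CPM in VX_SHU and 124, 128, 92.8 and 126 CPM in Sham_SHU (-0.46 ± 0.117, edgeR adjusted p = 0.376). For both, Sham_SHU3 alone reached into the range of VX_SHU. The third was Fabp5, a fatty acid carrier (-0.87 ± 0.366), and Lpl, the lipase that frees fatty acids from lipoproteins, had -0.40.

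In the lipolysis and lipid droplet list 15 of 21 genes were below 0, the median was -0.10 (-0.01 without VX_SHU4, -0.17 without Sham_SHU3), and 0 genes were at an unadjusted p under 0.05. Adrb3, the adipocyte beta-adrenergic receptor, averaged 942 ± 200 CPM in VX_SHU and 933 ± 188 CPM in Sham_SHU (SD, n = 4 each). All 22 fatty acid oxidation genes were below 0, but none reached an unadjusted p under 0.05 and the median was -0.21 (-0.10 without VX_SHU4). VX_SHU3 was the highest VX_SHU library for 20 of these 22, and Sham_SHU3 the lowest Sham_SHU library for 20. For oxidative phosphorylation 23 of 28 genes were below 0 with a median of -0.09 (-0.02 without Sham_SHU2, -0.20 without VX_SHU3), and Sham_SHU3 was lowest in its group for all 28. Of the thermogenic genes, 15 of 18 were tested, with a median of -0.29 (-0.08 without Sham_SHU4, 0.03 without the 6 libraries richest in epididymis markers). Of the 15, 1 was higher and 3 were lower at an unadjusted p under 0.05 (5.11% and 5.54% of all genes). None of the 15 passed the edgeR test. Otop1, a proton channel gene of brown and beige fat, had 0.532, 0.217, 0.598 and 0.305 CPM in VX_SHU and 2.51, 2.35, 0.589 and 1.92 CPM in Sham_SHU (-2.15 ± 0.619, edgeR adjusted p = 0.432), again with Sham_SHU3 at the level of VX_SHU. Ucp1, the uncoupling protein of brown fat, had at most 0.0886 CPM in any of the 8 libraries and was not tested.

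Genes of glucose use were mostly lower in VX_SHU. Of 19 glycolysis genes, 15 were below 0 (50.9% of all genes), with a median of -0.30 (-0.15 without Sham_SHU2). At an unadjusted p under 0.05, 2 were lower (5.54% of all genes), and limma-voom called both (2.55% of all genes). Tpi1, triose phosphate isomerase, had 364, 356, 498 and 322 CPM in VX_SHU and 578, 654, 384 and 519.8 CPM in Sham_SHU (-0.47 ± 0.150, edgeR adjusted p = 0.441). Of 16 glycogen genes, 13 were below 0, and 3 were lower at an unadjusted p under 0.05 (5.54% of all genes). Gys2, the glycogen synthase best known from liver, had 15.7, 13.9, 52.0 and 13.6 CPM in VX_SHU and 78.0, 64.4, 22.7 and 45.8 CPM in Sham_SHU (-1.15 ± 0.471, and -1.87 without VX_SHU3). VX_SHU3 and Sham_SHU3 crossed in both genes. In the insulin signalling list of 24 genes the median was -0.09 (-0.04 without VX_SHU4). Trib3, a pseudokinase that binds Akt, was higher without overlap, at 9.93, 15.6, 11.5 and 9.96 CPM in VX_SHU and 7.59, 8.20, 7.69 and 7.82 CPM in Sham_SHU (0.59 ± 0.223). Mtor, the kinase of growth signalling, had a log2 fold change of -0.19 and was lower at an unadjusted p under 0.05.

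**Figure D3:**
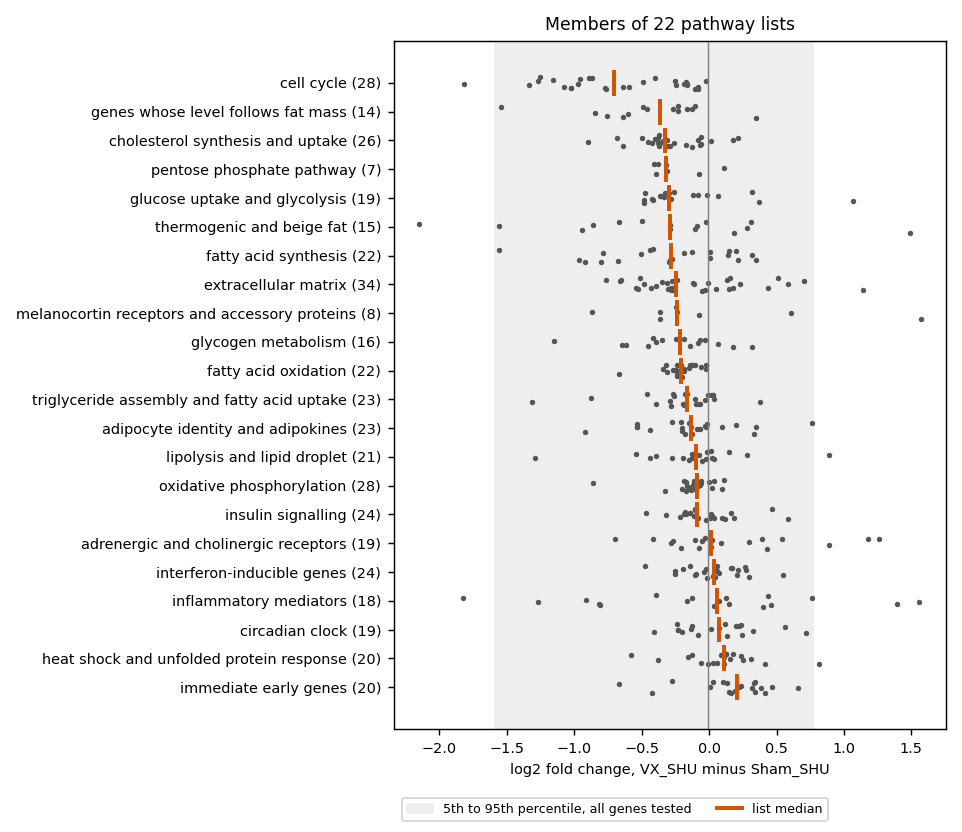
Log2 fold change of VX_SHU minus Sham_SHU for each member of 22 gene lists (dots), with the list's median as an orange bar and the range from the 5th to the 95th percentile of all 16682 genes as a grey band. The cell cycle list lies wholly below 0 with a median of -0.70, and most lipid, glycolysis and fat mass lists have medians between -0.4 and 0.

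Adipokines did not move as 1 group. Of 23 genes tested for adipocyte identity and adipokines, 18 were below 0 with a median of -0.13 (-0.01 without VX_SHU4, -0.24 without VX_SHU3). Adipoq had a log2 fold change of -0.07 ± 0.247 (-0.15 without VX_SHU1, 0.03 without VX_SHU4) and Pparg, the master regulator of adipocytes, -0.20 ± 0.235 (-0.09 without VX_SHU4, -0.11 without Sham_SHU1, -0.36 without VX_SHU3). Lep, the gene of leptin, had 607, 869.5, 867 and 479 CPM in VX_SHU and 876, 1341, 739.6 and 1131 CPM in Sham_SHU (-0.53 ± 0.369, edgeR adjusted p = 0.582), with overlap. Cfd, the complement factor adipsin, ran the other way without overlap, at 10370, 8461, 8092 and 7564 CPM in VX_SHU and 5492, 3823, 6763 and 4196 CPM in Sham_SHU (0.77 ± 0.313, edgeR adjusted p = 0.466). Apln, the gene of apelin, had 17.1, 14.5, 29.6 and 15.6 CPM in VX_SHU and 48.7, 31.1, 25.1 and 40.2 CPM in Sham_SHU (-0.92 ± 0.329). Of 14 genes whose level is known to follow fat mass, 13 were below 0 (50.9% of all genes), with a median of -0.36 (-0.23 without VX_SHU4). At an unadjusted p under 0.05, 4 were lower (5.54% of all genes). These were Vldlr, Lpgat1 (-0.60 ± 0.190), Npr3, the natriuretic peptide clearance receptor (-0.64 ± 0.290), and Fgf13 (-1.54 ± 0.418). Fgf13 had 8.38, 5.34, 11.9 and 4.85 CPM in VX_SHU and 16.6, 38.8, 11.2 and 21.8 CPM in Sham_SHU, and again only VX_SHU3 and Sham_SHU3 crossed. Mest, an imprinted gene that rises as fat cells enlarge, had 51.5, 64.9, 145 and 60.8 CPM in VX_SHU and 104, 222, 114 and 104 CPM in Sham_SHU (-0.76 ± 0.382, with -0.41 without Sham_SHU2 and -1.20 without VX_SHU3).

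Matrix genes lay on both sides. Of 34 genes tested, 7 were lower and 5 higher at an unadjusted p under 0.05 (5.54% and 5.11% of all genes). The list median was -0.24 (-0.10 without Sham_SHU2), and none of the 34 passed the edgeR test. The lower ones were collagens of basement membranes and fine fibres (Col4a1, Col5a2, Col5a3, Col6a2 and Col18a1), Fbn1 and Sparc. Sparc, a collagen-binding glycoprotein of fat matrix, had 2664, 2737, 3192 and 2309 CPM in VX_SHU and 4088, 4505, 3250 and 3673 CPM in Sham_SHU (-0.51 ± 0.173, edgeR adjusted p = 0.445), without overlap. Fbn1, the gene of fibrillin-1 and of the hormone asprosin, was apart as well, at 181, 136, 208 and 228 CPM in VX_SHU and 234, 375, 269 and 302 CPM in Sham_SHU (-0.65 ± 0.240). The higher ones were the matrix proteases Mmp2 and Mmp14, their inhibitor Timp2, the proteoglycan gene Dcn and Col6a5. Mmp2, a gelatinase, had 95.6, 85.8, 63.1 and 108 CPM in VX_SHU and 52.0, 46.5, 61.1 and 57.2 CPM in Sham_SHU (0.70 ± 0.155, edgeR adjusted p = 0.315), apart by the narrow gap between VX_SHU3 and Sham_SHU3. Dcn, decorin, had 1962, 1733, 1182 and 1750 CPM in VX_SHU and 1092, 836, 1408 and 1083 CPM in Sham_SHU (0.58 ± 0.165), and here VX_SHU3 was the low VX_SHU library and Sham_SHU3 the high Sham_SHU library. Limma-voom called 4 genes of the list higher and 4 lower (2.12% and 2.55% of all genes).

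Immune cell markers leaned higher in VX_SHU. Of 20 macrophage markers 18 were above 0 (49.1% of all genes), the median was 0.28, and 7 were higher at an unadjusted p under 0.05 (5.11% of all genes). Summed macrophage markers were 1490, 1191, 1439 and 1815 CPM in VX_SHU and 1109, 1309, 1325 and 1131 CPM in Sham_SHU, which overlapped (two-sided exact permutation p = 0.114, adjusted p = 0.532 over 14 marker lists). Cd14, the lipopolysaccharide co-receptor, was apart, at 25.4, 24.7, 17.4 and 25.7 CPM in VX_SHU and 13.5, 15.4, 17.0 and 12.8 CPM in Sham_SHU (0.66 ± 0.239). Gpnmb, a glycoprotein of lipid-laden macrophages, had 57.6, 25.6, 47.0 and 185 CPM in VX_SHU and 10.3, 26.5, 20.2 and 19.2 CPM in Sham_SHU (2.05 ± 0.511, edgeR adjusted p = 0.376). Its VX_SHU4 value was far above the others, and VX_SHU2 lay within the range of Sham_SHU; without VX_SHU4 the log2 fold change was 1.19. Ccl8, a monocyte chemokine, was likewise highest in VX_SHU4, at 39.0, 22.6, 21.7 and 131 CPM in VX_SHU and 11.2, 23.0, 19.3 and 19.5 CPM in Sham_SHU (1.55 ± 0.502, and 0.60 without VX_SHU4). VX_SHU4 also carried the most epididymis RNA (11130 CPM), and its part in these 2 genes was not tested.

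Chemokines differed in direction. Cxcl12, the stromal chemokine that holds leukocytes and progenitors in tissue, had 318, 278, 251 and 271 CPM in VX_SHU and 222, 191, 208 and 191 CPM in Sham_SHU (0.46 ± 0.138, edgeR adjusted p = 0.435), without overlap. Ccl2, which recruits monocytes, had 3.94, 3.54, 13.4 and 3.78 CPM in VX_SHU and 13.5, 21.0, 10.6 and 14.4 CPM in Sham_SHU (-1.27 ± 0.470, and -1.99 without VX_SHU3), where VX_SHU3 alone reached the Sham_SHU range. The 18 inflammatory genes tested had a median of 0.06 (-0.10 without VX_SHU3, 0.26 without Sham_SHU2), and the 24 interferon-inducible genes one of 0.04 (-0.02 without Sham_SHU2, 0.12 without Sham_SHU1). Among mast cell and granulocyte markers, 8 of 14 were above 0, with a median of 0.30 (0.19 without VX_SHU4, 0.05 with no filter on low counts). At an unadjusted p under 0.05, 4 were higher (5.11% of all genes), all of them mast cell protease genes. Cma1, mast cell chymase, had 14.3, 8.76, 6.06 and 11.2 CPM in VX_SHU and 2.42, 3.05, 6.69 and 4.54 CPM in Sham_SHU (1.27 ± 0.333, edgeR adjusted p = 0.384). Mcpt4, Tpsb2 and Cpa3 had log2 fold changes of 1.18 ± 0.374, 1.09 ± 0.352 and 0.77 ± 0.277. For Cma1 and Mcpt4, VX_SHU3 lay below Sham_SHU3, and close copies of these proteases may share reads. Among T, B and NK cell markers 13 of 17 were above 0, with a median of 0.32 (0.17 without VX_SHU2). Of the 17, Cd4, Il7r and Cd79b were higher at an unadjusted p under 0.05 (5.11% of all genes). The summed level had an exact permutation p of 0.0571 (two-sided, adjusted p = 0.532).

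Of 12 mural cell markers, 4 were higher at an unadjusted p under 0.05 (5.11% of all genes), namely Tagln, Myh11, Acta2 and Des. The list median was 0.18 (0.30 without Sham_SHU1). The summed level of the 12 markers differed by 0.16 on the log2 scale (two-sided exact permutation p = 0.171, adjusted p = 0.598 over the 14 marker sums). Tagln, an actin-binding protein of smooth muscle, had 179, 197, 74.1 and 192 CPM in VX_SHU and 71.0, 86.7, 102 and 75.2 CPM in Sham_SHU (0.94 ± 0.264, edgeR adjusted p = 0.432). Myh11, its myosin heavy chain, had 242, 239, 84.2 and 245 CPM in VX_SHU and 104, 109, 158 and 112 CPM in Sham_SHU (0.75 ± 0.272). Vwf, from endothelium, had 212, 177, 77.4 and 151 CPM in VX_SHU and 97.4, 87.6, 106 and 79.4 CPM in Sham_SHU (0.73 ± 0.295). In all 3 genes VX_SHU3 was by far the lowest VX_SHU library and Sham_SHU3 the highest Sham_SHU library. The endothelial list had a median of 0.12 (0.01 without VX_SHU1, 0.22 without Sham_SHU1) and the fat progenitor list one of 0.14 (0.01 without VX_SHU4). None of the 14 marker sums passed an exact permutation test at an adjusted p under 0.05. With 70 assignments the smallest possible p was 0.0286, so 1 sum alone could not pass after adjustment over 14. These tests therefore say little about the sums.

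Some markers of nerve were sparse. Of 15 nerve and Schwann cell markers 11 were tested, and Th, Dbh, Prph and Nefl, which mark sympathetic and other axons, had too few counts. Of the 11, 8 were above 0 (49.1% of all genes) and 3 below, with a median of 0.395 (0.132 without VX_SHU4). The summed level went the other way, at 372.5 ± 71.9 CPM in VX_SHU and 445.4 ± 79.4 CPM in Sham_SHU (SD, n = 4 each). Its log2 difference was -0.256 (two-sided exact permutation p = 0.343, adjusted p = 0.711 over 14 marker lists). Cdh19, a Schwann cell cadherin, had 1.59, 1.49, 1.24 and 0.878 CPM in VX_SHU and 0.617, 0.659, 0.920 and 0.857 CPM in Sham_SHU (0.76 ± 0.249). VX_SHU4 alone reached the range of Sham_SHU. Of 19 adrenergic and cholinergic receptor genes tested, the median was 0.01 (-0.14 without VX_SHU2, 0.30 without Sham_SHU3). Bche, butyrylcholinesterase, was the only 1 at an unadjusted p under 0.05 (-0.42 ± 0.183). Chrm3, a muscarinic acetylcholine receptor, had 2.88, 1.77, 1.58 and 6.11 CPM in VX_SHU and 0.712, 0.577, 1.54 and 2.32 CPM in Sham_SHU (1.26 ± 0.643), with overlap. It was highest in VX_SHU4 and Sham_SHU4, the libraries of each group with the most epididymis RNA (11130 and 3417 CPM of markers other than Npc2). The part of that RNA in Chrm3 was not tested.

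Immediate early genes leaned higher, with 17 of 20 above 0 and a median of 0.21 (0.10 without Sham_SHU4 or VX_SHU1, 0.37 without Sham_SHU2). Jund, a subunit of the transcription factor AP-1, had 97.3, 87.9, 84.7 and 98.8 CPM in VX_SHU and 61.6, 83.8, 74.0 and 62.7 CPM in Sham_SHU (0.39 ± 0.0984, edgeR adjusted p = 0.376), without overlap. Clock genes had a median of 0.08 (0.01 without Sham_SHU3, 0.22 without Sham_SHU2). In the list for heat shock and the unfolded protein response the median was 0.11 (-0.03 without VX_SHU4). Atf4, the transcription factor of the amino acid response, had 113, 114, 106 and 115 CPM in VX_SHU and 93.3, 99.0, 92.8 and 94.2 CPM in Sham_SHU (0.24 ± 0.0863), a small difference with no overlap. Hspa8, a constitutive chaperone, was apart too (0.31 ± 0.113), whereas Serpinh1, the chaperone of collagen folding, was lower (-0.58 ± 0.251).

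Whether sDVX acted differently under SHU9119 than under vehicle was tested by the interaction in all 16 libraries, and 0 of 16682 genes (0%) passed with edgeR (smallest adjusted p = 0.612), with 794 (4.76%) at an unadjusted p under 0.05. DESeq2 called 8 genes and limma-voom 13. Without Sham_Veh4, edgeR called 1, Srpx. For Srpx the log2 fold change was 0.68 ± 0.118 under SHU9119 and -0.31 ± 0.117 under vehicle, where it averaged 25.1 ± 2.02 CPM in VX_Veh and 31.2 ± 4.84 CPM in Sham_Veh (SD, n = 4 each). The interaction was 0.99 ± 0.166. VX_SHU and Sham_Veh thus had like means, and Sham_SHU was the lowest of the 4 groups at 19.1 ± 1.07 CPM.

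Other genes with the smallest interaction p on the positive side were Ifi204, Arhgap15, Numbl and Lrrc17. Ifi204, an interferon-inducible DNA sensor, averaged 33.3 ± 2.13 CPM in VX_SHU and 28.7 ± 1.08 CPM in Sham_SHU, and 26.7 ± 4.04 CPM in VX_Veh and 39.8 ± 3.83 CPM in Sham_Veh (SD, n = 4 each; interaction 0.79 ± 0.146). Cma1 had a log2 fold change of 1.27 under SHU9119 and -0.56 under vehicle, and Dcn 0.58 and -0.25. Cd14 had 0.66 and -0.46, and Cxcl12 0.46 and -0.16. In each of these the sDVX difference was above 0 with the drug and below 0 without it, and none passed the interaction test. On the negative side were Scd2, Exoc4, Bpnt1, Gcsh and Mogat2. Scd2 averaged 676 ± 147 CPM in VX_SHU and 1080 ± 308 CPM in Sham_SHU, and 542 ± 162 CPM in VX_Veh and 272 ± 54.9 CPM in Sham_Veh (SD, n = 4 each). Its sDVX log2 fold change was -0.68 with the drug and 0.99 with vehicle (interaction -1.67 ± 0.365).

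Medians of the lists can be set side by side in the same way. The fatty acid synthesis list had a median of -0.28 under SHU9119 and 0.48 under vehicle, and the cholesterol list one of -0.33 and 0.30. The glycolysis list had -0.30 and 0.25. The fat mass list was below 0 in both settings, at -0.36 under SHU9119 and -0.41 under vehicle, as was the cell cycle list. Macrophage markers had 0.28 under SHU9119 and -0.25 under vehicle. Emp1, an epithelial membrane protein gene named by earlier results of these data, had 0.96 ± 0.218 in the interaction. VX_Veh averaged 261 ± 64.4 CPM and Sham_Veh 532 ± 81.4 CPM, while VX_SHU averaged 592 ± 43.0 CPM and Sham_SHU 619 ± 53.5 CPM (SD, n = 4 each). Tph2, an enzyme of serotonin synthesis, averaged 0.688 ± 0.266 CPM in VX_SHU and 1.92 ± 0.929 CPM in Sham_SHU, and under vehicle 0.120 ± 0.0465 CPM in VX_Veh and 0.247 ± 0.0781 CPM in Sham_Veh (SD, n = 4 each).

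**Figure D4:**
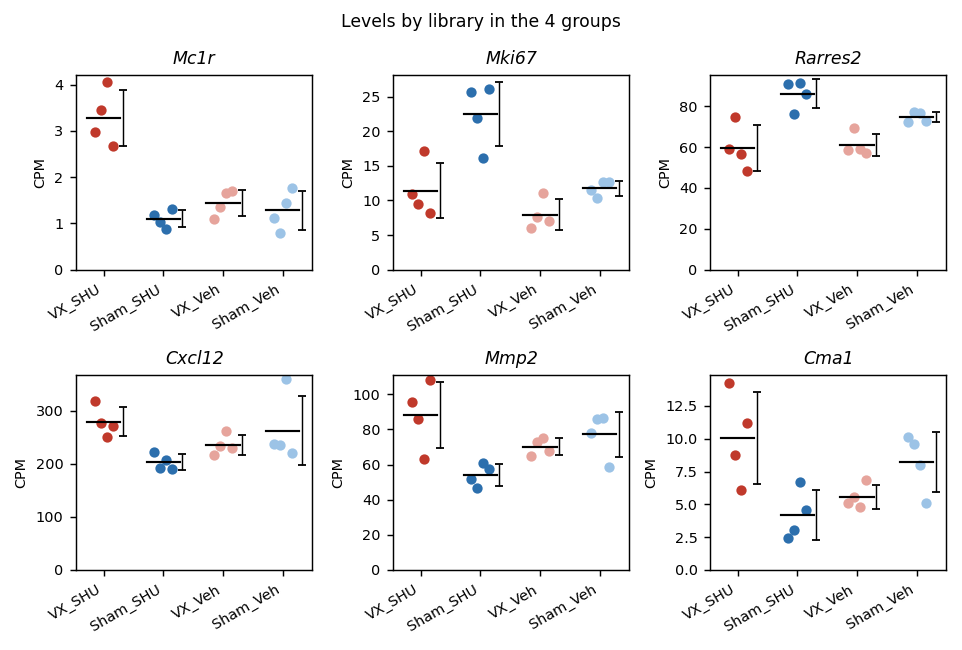
CPM of Mc1r, Mki67, Rarres2, Cxcl12, Mmp2 and Cma1 in VX_SHU, Sham_SHU, VX_Veh and Sham_Veh, with 1 dot per library, the group mean as a line and the SD as a bar. Mc1r is high in the 4 VX_SHU libraries alone (2.67 to 4.06 CPM), and Mki67 is high in 3 of the 4 Sham_SHU libraries.

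The fold changes followed the GC content of the transcripts. Genes were split by GC into 5 equal bins. In the bin with the lowest GC, 2.27% were higher and 8.94% lower in VX_SHU at an unadjusted p under 0.05, and in the bin with the highest GC 9.01% were higher and 2.05% lower. Medians of the bins were -0.06, -0.05, -0.02, 0.02 and 0.09 from low to high GC. For the GC tilt of a library, the median log2 deviation from the average library in the lowest GC bin was subtracted from that in the highest. The tilt was 0.0569, 0.106, 0.0318 and 0.0689 in VX_SHU and -0.158, 0.0191, -0.0088 and -0.124 in Sham_SHU. All 4 VX_SHU libraries were above all 4 Sham_SHU libraries (two-sided exact permutation p = 0.0286, the smallest that 4 against 4 can give). With each library's GC trend removed, 0 genes passed with edgeR and 1690 were at an unadjusted p under 0.05, against 1778 before. The median GC content was 47.8% for the cell cycle list and 49.8% for all genes tested. In that fit none of the 20 leading genes passed and each kept its sign, and 34 of the 36 list medians kept theirs. Cell cycle genes kept a median of -0.70. The clock list turned to -0.01 and the list of adrenergic and cholinergic receptors to -0.01. The mural cell list moved to 0.11, the endothelial list to 0.08 and the melanocortin list to -0.32.

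**Figure D5:**
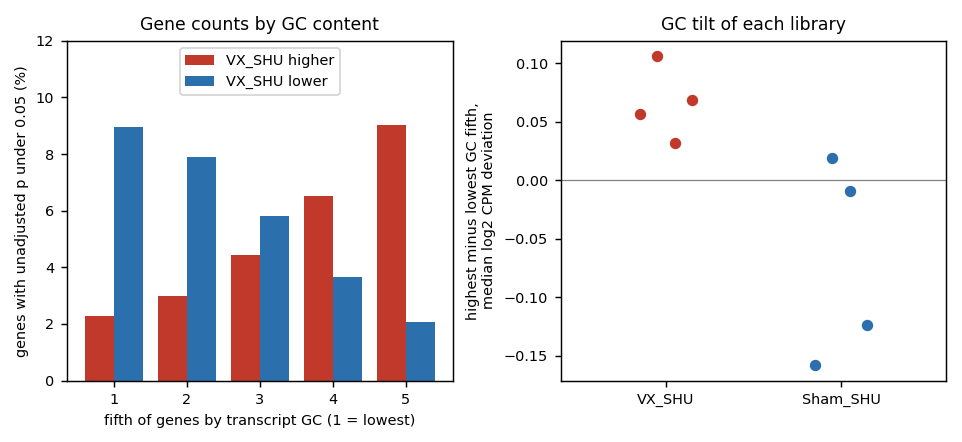
Left, percent of genes at an unadjusted p under 0.05 that were higher or lower in VX_SHU, in 5 equal bins of transcript GC content from low to high. Right, the GC tilt of each library (highest minus lowest GC bin, log2 scale), with VX_SHU left of Sham_SHU. The VX_SHU libraries lie between 0.0318 and 0.106, above every Sham_SHU library.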

How the data were processed

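PolyA RNA of gonadal fat was sequenced in 16 libraries of 4 groups, and the 8 libraries infused with SHU9119 are compared here. The deposited table holds raw counts per gene, made by the authors; bcl2fastq, TopHat, edgeR and mm10 are named without versions, per the submitters' processing notes. Which counting tool, annotation and strand setting were used is not given in the sources used here. Totals of the 8 libraries were 20904855 to 30889052 counts (exact permutation p between groups 0.6). Of 24454 gene IDs, 24374 matched RefSeq GRCm38.p6 (the mm10 build), and 80 without a match kept their counts but no name. All 12 pairs of libraries within the 2 groups differed beyond sampling noise (chi-square per degree of freedom 28.7 to 188).

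In R 4.3.3, counts were filtered by filterByExpr by group (16682 of 21661 genes with any count), scaled by TMM and fitted to all 16 libraries with edgeR 4.0.16 (robust quasi-likelihood, 12 residual degrees of freedom, Benjamini-Hochberg adjustment, threshold 0.05). The biological coefficient of variation was 50% (common) and 22.8% (median). CPM uses TMM-scaled totals. The figures show log2 of this CPM, and marker sums were compared as log2 of the sum plus 1. Log2 CPM with a prior count of 2 was used for the GC tilt, the GC trend and the correlations between libraries. Standard errors were derived as the fitted log2 difference divided by the square root of its F statistic. Sums of marker lists were compared by exact permutation over 70 assignments. Alternatives used DESeq2 1.42.0, limma 3.58.1 (voom with sample weights), other scaling, filter, dispersion, replicate block, covariates, subsets and each library left out.

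Named genes were the 10 with the smallest p in each direction with a mean of at least 5 CPM, 5 in each direction of the interaction, the 4 with the smallest p of each list (some printed), and a panel of 23 genes. Unnamed models, immune receptor segments and markers of epididymis, testis and cilia were left out of the first 2. Other genes printed, Chrm3 and the vehicle values beside them included, were chosen after their values were seen. Some genes that these rules name are not reported here. The members and the 36 lists were chosen with earlier results of these data known. On simulated counts (16585 genes) 28%, 42%, 66% and 72% of the 50 genes simulated at folds of 1.5, 2, 3 and 4 were recovered, and 4 unchanged genes were called.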

Additional observations from a re-analysis of the deposited data

Results flagged for a closer look

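In 114 groups of 4 libraries examined, 8 had 1 library whose gap to the nearest of the others was large for the range of the group (Dixon's 95% critical value), and chance gives about 1 in 20. Among single genes, Acss2, the cytosolic acetyl-CoA synthetase, had 802.7 CPM in VX_SHU3, against 281.4 to 322.1 CPM in the other VX_SHU libraries. Fmr1 had 349.4 CPM in Sham_SHU3, against 447.4 to 459.2 CPM in the other Sham_SHU libraries. Scd2 had 622.2 CPM in Sham_SHU3, against 1172 to 1268 CPM. Mest had 222.1 CPM in Sham_SHU2, against 103.7 to 114.2 CPM. Ucp1 had 0.0412 CPM in Sham_SHU2 and was listed at 0 in the other Sham_SHU libraries. Where all other libraries are at 0 any count is flagged, so this flag says little.

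Of the marker sums, epididymis stood at 12030 CPM in VX_SHU4, against 539.4 to 628.4 CPM in the other VX_SHU libraries. The nerve and Schwann cell sum was 480 CPM in VX_SHU3, against 331.3 to 344.6 CPM. The lymph node and pancreas sum was 26.5 CPM in VX_SHU1, against 33.86 to 34.39 CPM.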

How the results depend on the processing

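The count of genes past the threshold in VX_SHU against Sham_SHU was 0 in 23 of 25 alternative edgeR fits, and in these 25 fits 1020 to 2552 genes were at an unadjusted p under 0.05. The count was 93 with DESeq2 and 779 with limma-voom, 0 to 3 with each library left out (3 without Sham_Veh4), and 4 without the libraries that held at least 500 CPM of testis markers (Sham_Veh4 and Sham_SHU3). For the interaction it was 8 with DESeq2, 13 with limma-voom and 0 to 1 with each library left out. Same-numbered libraries of the 2 groups had correlations of 0.623, -0.33, -0.553 and 0.339 between their deviations from the group means. Libraries with different numbers reached 0.636 and -0.653, so there was no consistent likeness by number. A shared batch cannot be read from these values. With the replicate block 0 genes passed and 1564 were at an unadjusted p under 0.05. Leaving out libraries by epididymis markers could not be fitted as planned, since all 16 reach 500 CPM when Npc2 is counted; an alternative without Npc2, added after the data were seen like the testis subset and the GC trend, left out 6 libraries and gave 0 calls.

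The log2 fold change of Adipoq lay between -0.153 and 0.025 with each library left out (0.025 without VX_SHU4), and that of Emp1 turned to 0.0559 without the epididymis libraries. With the mean of log2(CPM + 1) in place of a sum, the markers of fat progenitors turned to 0.0806, of nerve to 0.114 and of skeletal muscle to 0.0642. With each library left out, the log2 difference of marker sums lay between -0.00678 and 0.163 for endothelium, -0.0479 and 0.0232 for fat progenitors, -0.677 and 0.247 for ciliated cells, -0.184 and 0.162 for blood, and -1.53 and 0.0171 for epididymis. The cause of these moves was not tested. The median standard error of a log2 fold change was 0.183.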

Other observations

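A few gene families outside the lists, chosen after their values were seen, are given here with their counts. Of 78 genes of cytosolic ribosomal proteins tested, 75 had a log2 fold change above 0 in VX_SHU minus Sham_SHU (49.1% of all genes), with a median of 0.25. At an unadjusted p under 0.05, 16 were higher and 1 lower (5.11% and 5.54% of all genes). Host genes of small nucleolar RNAs, which carry the guides for ribosomal RNA modification in their introns, were above 0 for 15 of 17, with a median of 0.30. Snhg18, Snhg7, Snhg20 and Snhg16 had log2 fold changes of 0.37, 0.49, 0.63 and 0.62. All 10 serine/arginine-rich splicing factor genes (Srsf) were above 0, with a median of 0.16, and 2 were higher at an unadjusted p under 0.05 (5.11% of all genes).

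Histone genes of the H1, H2a, H2b, H3 and H4 series, taken by their symbols, were below 0 for 8 of 10, with a median of -0.65. At an unadjusted p under 0.05, 5 were lower (5.54% of all genes). The limits given for the count of H2bc6 may hold for these genes too. Of 17 tubulin genes, 13 were below 0 (50.9% of all genes), with a median of -0.24. At an unadjusted p under 0.05, 1 was higher and 1 lower (5.11% and 5.54% of all genes). Of 11 annexin genes, 7 were below 0, and 1 was higher and 4 were lower at an unadjusted p under 0.05 (5.11% and 5.54% of all genes). None of these genes passed the edgeR test.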
